A study of Mus musculus with 4 samples.

Results

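Chemokine and chemokine receptor genes were followed across the cell classes of mouse spinal cord, in 1 library from injured and 1 library from uninjured animals. The members were the gene rows whose name begins with Ccl, Cxcl, Ccr or Cxcr directly followed by a digit, together with Cx3cl1, Cx3cr1 and the 4 atypical receptors Ackr1 to Ackr4. This gave 65 of the 32287 genes in the count table, under 59 different symbols, with 7 of them on scaffolds outside the chromosomes. A member was reported where it had at least 10 unique molecular identifiers (UMIs, each counting 1 captured transcript) over the named classes and both conditions. The 36 reported members were 24 ligands and 12 receptors, with 21317 UMIs in the named classes. Of the 29 members below that count, 19 had 0 UMIs and 10 had between 1 and 9. Just inside the threshold lay Ccr6 and Ccr10 with 10 UMIs each and Ccl20 with 12, and just outside it lay Cxcr2 with 9 and Cxcr6 and Ccl28 with 8 each.

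The study crossed Cx30 mice with a tdTomato Cre reporter line, in which tamoxifen induced the recombination that labels astrocytes. Spinal cord segments of 5 mm were dissociated, and tdTomato-positive cells were sorted for droplet sequencing of transcript 3′ ends. All animals were 8 to 12 weeks old and had received tamoxifen, and a pool of AAV enhancer vectors intravenously. The injured group was collected 3 days after a contusion of the cord, although the series text also carries another day count beside the injury model, and the uninjured group had no injury. Each library pooled cells of 1 to 2 animals of each sex, so differences between animals cannot be told apart from differences between conditions, and no test between conditions was possible.

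Chemokines are small secreted proteins that attract cells carrying the matching receptors, which signal through G proteins. CC chemokines (Ccl) mainly draw monocytes, macrophages and lymphocytes, while several CXC chemokines (Cxcl) draw neutrophils through Cxcr2. The atypical receptors (Ackr) bind chemokines without G protein signalling and remove or transport them, and in the healthy cord the pair best known is neuronal Cx3cl1 with its microglial receptor Cx3cr1.

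After filtering, 879 injured cells carried 8499672 gene UMIs in all (median depth 6816) and 4159 uninjured cells carried 15543460 (median depth 3343). The libraries shared 7 cell barcodes. Levels are given as UMIs per 1000000 gene UMIs of a class (CPM), each with an exact Poisson 95% interval, and a ratio of levels carries an exact binomial 95% interval. These intervals cover counting error only, not the spread between animals or cells. A member was counted as higher or lower where the ratio of the levels, after 1 CPM was added to each, reached 2-fold, over genes with at least 10 UMIs in the compared groups.

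Cells were grouped without using the members, and 7 classes were named from markers. The largest was astrocyte-like (418 injured and 3199 uninjured cells), and the others were microglia-like (126 and 31), ependymal-like (144 and 31), fibroblast-like (43 and 95), endothelial-like (70 and 26), oligodendrocyte precursor-like (OPC-like, 41 and 14) and mural-like (13 and 3). A further cluster of 24 injured and 760 uninjured cells stayed unnamed, since neuronal genes (Syt1, Nefl, Nefm, Snap25) led it beside astrocyte markers. The tdTomato transcript itself stood at 2170 CPM in injured and 407 CPM in uninjured astrocyte-like cells, and at 32.3 and 0 CPM in microglia-like cells, which nevertheless passed the sort. Among injured astrocyte-like cells, 317 of 418 lay in a cluster led by Gfap and Lcn2, which held 12 uninjured cells. The uninjured library went against its description in 1 respect: Xist, transcribed in female cells, had a UMI in 4 of 3199 uninjured and 72 of 418 injured astrocyte-like cells. Values from cells with Y-linked UMIs and no Xist UMI, called male cells, are therefore given beside many of the main results. They are not given for every member whose direction or call they moved.

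Sequence before the start site is shown for the members that held an NF-kappaB motif, known from inflammatory genes. The 250 bases before the start are given for Cxcl1 (chr5:90890995-90891244, plus strand), Cxcl2 (chr5:90903649-90903898, plus strand) and Cxcl10 (chr5:92348890-92349139, minus strand), from RefSeq on GRCm38.p6, 5′ to 3′ along the gene. Capitals mark an NF-kappaB motif (GGANTTTCC), an interferon-stimulated response element (ISRE, GAAANNGAA) or an AP-1 motif (TGANTCA), searched on both strands, and no marked motifs overlapped.
Cxcl1: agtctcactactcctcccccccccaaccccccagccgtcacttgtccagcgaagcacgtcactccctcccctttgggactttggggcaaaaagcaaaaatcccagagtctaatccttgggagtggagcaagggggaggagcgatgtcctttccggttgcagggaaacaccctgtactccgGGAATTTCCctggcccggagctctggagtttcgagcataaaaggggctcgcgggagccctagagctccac
Cxcl2: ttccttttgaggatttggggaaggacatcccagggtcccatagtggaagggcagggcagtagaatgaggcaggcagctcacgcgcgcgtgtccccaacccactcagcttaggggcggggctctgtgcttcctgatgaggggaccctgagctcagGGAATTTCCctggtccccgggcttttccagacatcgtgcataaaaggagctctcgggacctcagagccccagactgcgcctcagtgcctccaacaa
Cxcl10: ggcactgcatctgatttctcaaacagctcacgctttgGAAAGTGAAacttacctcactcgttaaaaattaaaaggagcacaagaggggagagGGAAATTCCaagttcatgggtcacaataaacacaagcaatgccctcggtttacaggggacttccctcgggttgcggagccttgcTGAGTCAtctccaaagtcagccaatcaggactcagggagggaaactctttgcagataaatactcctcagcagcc
The NF-kappaB motif began 70 bases before the start of Cxcl1, 96 bases before that of Cxcl2 and 158 bases before that of Cxcl10. Promoter sequence was available for 24 of the 36 reported members. Those not searched included Ccl2, Ccl4, Ccl5, Ccl7, Ccl11 and Cxcl16. The members with the NF-kappaB motif were 3 of 24, or 12.5%, against 1.05% of all 27025 promoters of the same length. Cxcl10 also carried the ISRE motif 213 bases and the AP-1 motif 74 bases before its start. The ISRE motif lay in 20.8% of the members (Cxcl10, Ccl19, Cxcl14, Ccr2 and Ccl3) and 7.16% of all promoters, and the AP-1 motif in 8.33% of the members (Cxcl10 and Ccl9) and 6.87% of all promoters. A match of letters is not evidence of binding.

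Microglia-like cells carried the highest summed chemokine level of the injured classes, 4222 CPM (4129 to 4315), ahead of fibroblast-like cells with 3255 CPM (3125 to 3389). Endothelial-like cells followed with 1718 CPM (1626 to 1815) and astrocyte-like cells with 476 CPM (448 to 505). With no filter on UMIs per barcode, which brings back 38 fibroblast-like barcodes, the order of the first pair was opposite, at 4431 CPM (4365 to 4497) in fibroblast-like and 4235 CPM (4144 to 4327) in microglia-like cells. In the uninjured library the summed level was 4653 CPM (4270 to 5061) in microglia-like, 3094 CPM (2768 to 3448) in endothelial-like, 1802 CPM (1660 to 1954) in fibroblast-like and 559 CPM (545 to 572) in astrocyte-like cells. The order of fibroblast-like and endothelial-like cells was thus opposite in the libraries, with intervals that did not overlap. Among the 36 members in the injured library, 18 had their highest level in microglia-like cells, and for 16 of these the interval lay above that of the next class. Another 8 peaked in fibroblast-like cells (5 with the interval apart), 5 in endothelial-like cells (all 5 apart) and 2 in mural-like cells (1 apart). Astrocyte-like, ependymal-like and OPC-like cells held the peak of 1 member each. In the uninjured library microglia-like cells again held most peaks, 13, with 8 intervals apart.

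**Figure D1:**
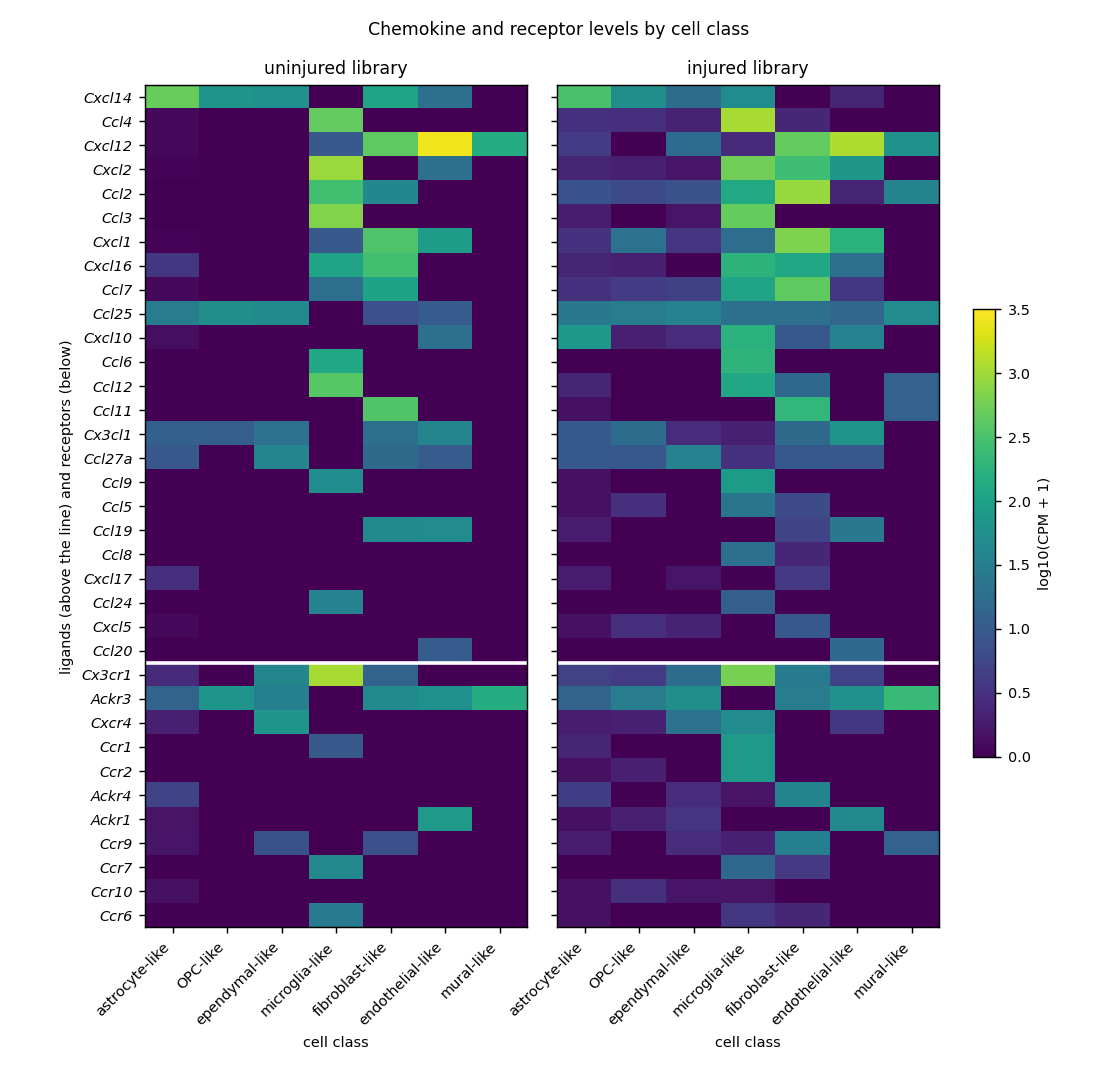
Level of each reported member in each named class, as colour on a log10(CPM + 1) scale, with the uninjured library at left and the injured one at right. Columns are classes and rows are members, ligands above the white line and receptors under it, and the microglia-like column of the injured library holds more of the highest levels than any other class.

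Astrocyte-like cells, the sorted population, were led by a single chemokine. Cxcl14, a ligand made constitutively by many epithelia, stood at 309.6 CPM (287 to 333, 703 UMIs) in injured and 482 CPM (469 to 495, 5615 UMIs) in uninjured astrocyte-like cells, which made it the highest member of this class in both libraries. The ratio was 0.642 (0.593 to 0.695), short of the 2-fold limit. A Cxcl14 UMI was found in 50.7% of injured and 69.0% of uninjured cells, or 20.6% and 35.5% once each cell was thinned to 1000 UMIs. Among the astrocyte-like clusters, uninjured cells ranged from 167 CPM in the 12 cells of the Gfap and Lcn2 cluster to 656 CPM, and the 317 injured cells of that cluster stood at 331 CPM. Among the other named classes, Cxcl14 was highest in uninjured fibroblast-like cells at 109.6 CPM. In the injured library it reached 53.6 CPM in OPC-like and 49.2 CPM in microglia-like cells. Astrocyte markers summed to 53.4 CPM in injured microglia-like cells, against 12848 CPM in injured astrocyte-like cells. The next constitutive ligands of astrocyte-like cells were far lower. Ccl25, best known as the thymic ligand of Ccr9, stood at 25.1 and 28.7 CPM (ratio 0.875, 0.649 to 1.16), and Ccl27a, a ligand known from skin, at 8.81 and 7.90 CPM. The membrane-tethered ligand Cx3cl1 stood at 8.81 and 11.0 CPM (ratio 0.802, 0.474 to 1.29), and the atypical Cxcl12 receptor Ackr3 at 11.9 and 12.2 CPM. Ccl25 was spread over all 7 classes in the injured library, and Ccl27a was highest in ependymal-like cells at 34.8 CPM. Reads of Ccl27a could be shared with near-identical copies, which were all listed at 0.

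Of 12 members tested in astrocyte-like cells, 2 were higher in the injured library and 0 were lower, against 13.6% of all genes higher and 8.82% lower. The median log2 ratio of the members was -0.15, and that of all genes -0.01. The higher members were Cxcl10, the interferon-induced ligand that draws T cells through Cxcr3, and Ccl2, the main ligand of the monocyte receptor Ccr2. Cxcl10 had 164 UMIs in injured and 4 in uninjured cells, or 72.2 and 0.343 CPM, a ratio of 210.3 (80.6 to 781). A single cell held 126 of the 164 UMIs, and 6 of 418 injured cells had any. Without the richest cell of each library 38 and 2 UMIs were left. Ccl2 had 15 UMIs in 13 injured cells and 0 in the uninjured cells, which made it at least 25.6-fold higher against a floor of 3 UMIs over the group. Its injured level, 6.61 CPM, was 0.73% of that in fibroblast-like and 4.95% of that in microglia-like cells. The marker genes of these classes stood in astrocyte-like cells at 0 to 4.70% (fibroblast, median 0.206%) and 0 to 4.25% (microglia, median 0.239%) of their own class. In male cells, 128 injured and 2165 uninjured, neither member was left with 10 UMIs: Cxcl10 had 4 and 2, and Ccl2 had 5 and 0. The other inflammatory ligands were near the detection limit in injured astrocyte-like cells, with 5 UMIs of Ccl4, 2 of Ccl3 and 3 of Cxcl2.

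Genes that act around the chemokines were counted in 4 lists of 58 genes in all. In astrocyte-like cells 7 of 15 tested NF-kappaB and interferon factors were higher in the injured library and 0 lower, and 3 of 9 tested inducing cytokines and their receptors were higher and 0 lower, against 13.6% and 8.82% of all genes. The factors were Cebpb with a ratio of 14.6 (8.65 to 25.7), Relb with 6.19, Irf7 with 4.40, Stat3 with 2.86, Nfkbiz with 2.60, Nfkb2 with 2.41 and Rela with 2.20. The receptors were Il1r1, the interleukin-1 receptor, with 13.5 (6.56 to 30.0), Il6ra with 71.8 (18.1 to 622) on 28 and 2 UMIs, and the tumour necrosis factor receptor Tnfrsf1a with 2.99. Of the signal transducers behind the receptors, Gnai2, Gng2 and Gng5 were higher (3 of 9 tested), and of the genes that process or tether chemokines, Gpc1 and Hspg2 (2 of 7 tested). In microglia-like cells 1 of 15 factors was higher and 9 lower, against 23.6% and 17.2% of all genes, among them Stat3 with a ratio of 0.187, Irf1 with 0.208, Relb with 0.228 and Nfkb1 with 0.401. The median log2 ratio of the factors was -1.31. A sub-cluster of this class led by Il1a and Nfkb1, described below, held 26 of 126 injured and 20 of 31 uninjured cells. Its part in these ratios was not tested. Of the other lists, 3 of 15 signal transducers were higher and 0 lower, 1 of 12 cytokines and receptors was higher and 2 lower, and 1 of 7 processing genes was higher and 2 lower. The median log2 ratio behind median-ratio size factors was -0.51 in this comparison, and taking it out raised the log2 ratios.

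**Figure D2:**
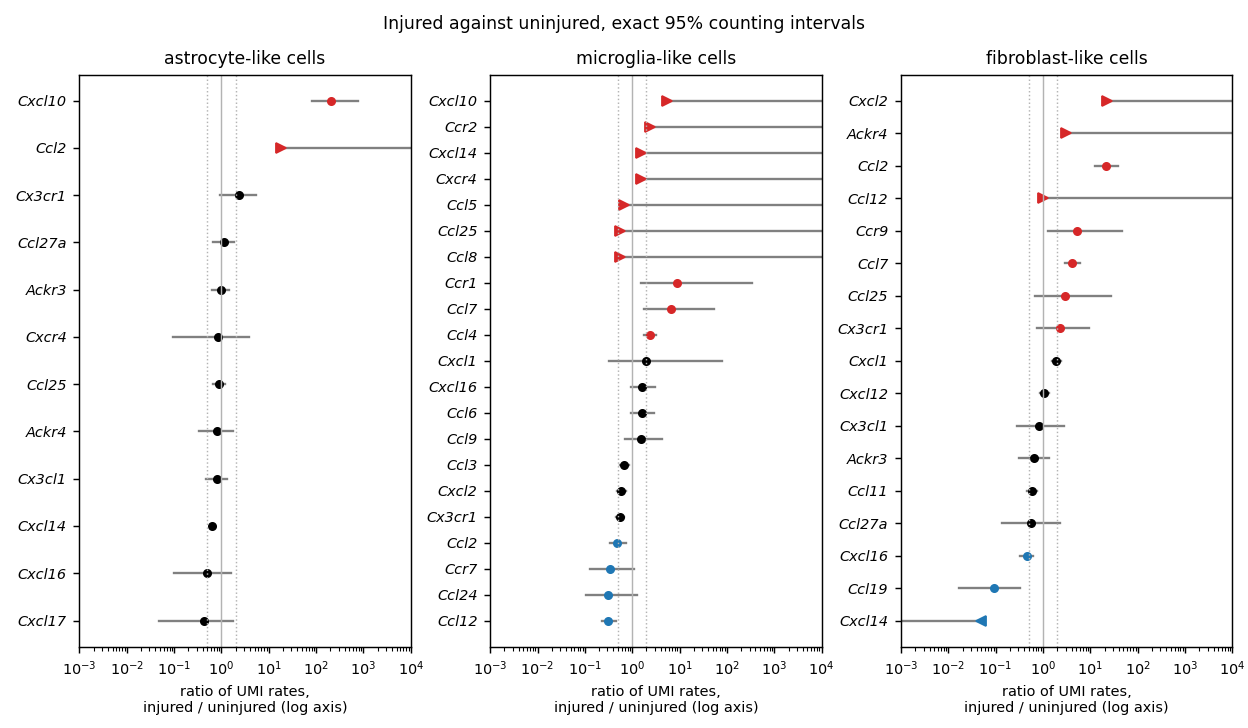
Ratio of injured to uninjured level for each tested member in astrocyte-like, microglia-like and fibroblast-like cells, on a log axis, with exact 95% intervals and dotted lines at 2-fold. Red and blue mark members called higher and lower after 1 CPM was added, triangles mark the interval bound of members with 0 UMIs on 1 side, and the called members drawn are 2 in astrocyte-like, 14 in microglia-like and 11 in fibroblast-like cells.

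Ccl4, Ccl3 and Cx3cr1 were highest in microglia-like cells. Ccl4, a ligand that draws monocytes and T cells, led in the injured library at 1095 CPM (1048 to 1143, 2069 UMIs) and stood at 462 CPM (347 to 603, 54 UMIs) in the uninjured one, a ratio of 2.37 (1.81 to 3.17). A Ccl4 UMI was found in 45.2% of injured microglia-like cells, against 1.196% of injured astrocyte-like cells, with median depths of 14070.5 and 3661 UMIs. Ccl3, its neighbour in the genome and a macrophage inflammatory protein like it, stood at 469.8 and 693 CPM (ratio 0.678). In the injured library 67 of 126 cells had a Ccl3 UMI, 57 had Ccl4 and 46 had both. Cxcl2, a neutrophil attractant, stood at 556 and 941 CPM (ratio 0.590), and in male cells in the opposite order, at 715 and 438 CPM (650 and 34 UMIs). Cx3cr1, the fractalkine receptor that marks microglia, stood at 601 CPM (567 to 637) after injury and 1095 CPM (913 to 1302) without it, a ratio of 0.549 (0.457 to 0.664). It was the highest member in uninjured microglia-like cells. Its annotated span overlaps other genes on the same strand (Gorasp1, Csrnp1, Xirp1), so a part of its UMIs may belong to these.

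Of 22 members tested in microglia-like cells, 10 were higher and 5 lower in the injured library, against 23.6% of all genes higher and 17.2% lower. With the interval also required to leave 1, 7 were higher and 3 lower. The uninjured class held only 31 cells and 116919 gene UMIs, so that 3 UMIs over the class amounted to 25.7 CPM. Cxcl10 stood at 169.8 CPM (321 UMIs) against 0 UMIs, at least 6.62-fold higher. Ccr2, the monocyte receptor of Ccl2, stood at 74.6 CPM (141 UMIs) against 0, at least 2.91-fold higher, although male cells held 25 of these UMIs, at 27.5 CPM. Cxcl14 with 93 UMIs and the Cxcl12 receptor Cxcr4 with 91 UMIs against 0 were at least 1.92-fold and 1.88-fold higher. Ccr1, a receptor of Ccl3 and Ccl5, had 140 UMIs against 1, a ratio of 8.66 (1.53 to 344). Ccl7, a further Ccr2 ligand, had 209 against 2, a ratio of 6.46 (1.77 to 53.7), with 99 of the 209 in a single cell. For Ccl5 (41 UMIs), Ccl25 (35) and Ccl8 (34, of which 30 lay in 1 cell) against 0, a difference was not detectable at this depth, since the bound fell under 1.

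The members below the limit included Ccl12, a Ccr2 ligand, at 121 CPM in injured and 385 CPM in uninjured microglia-like cells (ratio 0.315, 0.228 to 0.444). Ccl2 stood at 133 and 274 CPM (ratio 0.487, 0.336 to 0.728), with 22 of its 32 uninjured UMIs in 1 cell. In male cells Ccl2 was higher in the injured library, at 147 against 77.3 CPM (134 and 6 UMIs), and Ccl12 stood at 116 and 142 CPM. The intervals of Ccl24, an eotaxin, and of Ccr7, the lymph node homing receptor, spanned 1, and all 27 injured Ccr7 UMIs came from 1 cell. Ccl6, Ccl9 and Cxcl16, a ligand of Cxcr6, stayed inside the limit at 189, 79.4 and 181 CPM in injured and 120 (14 UMIs), 51.3 (6 UMIs) and 111 CPM (13 UMIs) in uninjured cells. In male cells Cxcl16 passed the limit, at 195 and 77.3 CPM (177 and 6 UMIs).

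The microglia-like class was not uniform, and its parts held different chemokines. Clustering of this class alone, again without the members, gave 4 sub-clusters of 33, 50, 17 and 26 injured cells and 0, 9, 2 and 20 uninjured cells. Sub-cluster 1 stayed unnamed because antigen presentation and monocyte genes led it (H2-Aa, H2-Eb1, Cd74, S100a9, Mrc1, Chil3, F13a1, Plac8). Its macrophage and monocyte markers summed to 22877 CPM in injured cells, against 1746, 15113 and 1233 CPM in sub-clusters 0, 2 and 3. Sub-cluster 2 was led by cell cycle genes such as Ube2c and Prc1, and sub-cluster 3 by Il1a, Nfkb1 and Gpr84. Over the whole class this marker list stood at 10378 CPM in the injured library, with 10 of 10 markers found, and at 3669 CPM in the uninjured one, with 8 of 10 found and Ly6c2 and Arg1 at 0. Neutrophil markers summed to 562 CPM (5 of 8 found) in the injured and 239 CPM (2 of 8) in the uninjured class, lymphocyte markers to 1.59 CPM (2 of 8) and 85.5 CPM (2 of 8), and their part in the results was not tested. Values without sub-cluster 1 are given after those of the sub-clusters, and they still include sub-cluster 2 with its macrophage and monocyte markers.

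The receptors divided along this line. Injured sub-cluster 1 held 137 of the 141 Ccr2 UMIs, in 19 cells, at 207 CPM, whereas sub-clusters 0, 2 and 3 stood at 0, 15.02 and 1.64 CPM. Cx3cr1 stood at 153 CPM in sub-cluster 1 and at 993, 315 and 910.1 CPM in sub-clusters 0, 2 and 3, a ratio of 0.18 (0.15 to 0.22) for sub-cluster 1 against the others. Cxcr4 was 11.2-fold higher there (6.17 to 21.9) and Ccr1 2.56-fold higher. Both Ccr2 and Cx3cr1 were found in some cells: 15 of the 22 cells with a Ccr2 UMI also had a Cx3cr1 UMI, which 92 of all 126 cells had. The ligands divided as well. Ccl7 (ratio 387, 68.7 to 15365, on 208 and 1 UMIs), Cxcl1 (18.0, 5.58 to 92.3), Ccl2 (3.79), Cxcl2 (2.99), Ccl6 (2.29) and Ccl9 (2.19) were higher in sub-cluster 1 than in the other injured sub-clusters. Ccl8 and Ccr7 were found in sub-cluster 1 alone, in 2 cells and 1 cell. Ccl4 was highest in sub-cluster 3, at 2502 CPM against 376 to 460 CPM elsewhere, with a UMI in all 26 of its injured cells, and Ccl3 stood at 974 CPM against 121 to 319 CPM. Sub-cluster 3 also held 298 of the 321 Cxcl10 UMIs, in 10 cells, at 489 CPM. Cxcl16 was even across the sub-clusters, from 164 to 210 CPM.

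**Figure D3:**
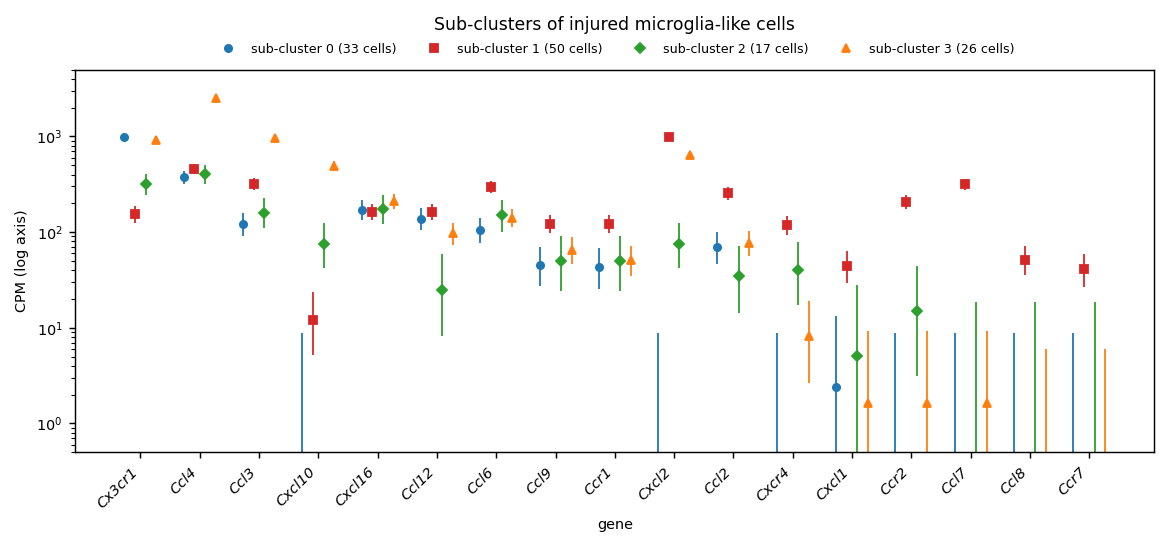
Level of members in the 4 sub-clusters of injured microglia-like cells, in CPM on a log axis, with exact Poisson 95% intervals and no point where a member had 0 UMIs. Ccr2 is at or under 15.02 CPM outside sub-cluster 1, Ccl4 and Cxcl10 are highest in sub-cluster 3, and Cx3cr1 is highest in sub-clusters 0 and 3.

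Several of the differences between the libraries in this class moved with sub-cluster 1. Its 9 uninjured cells held 32 of the 32 Ccl2 UMIs, 40 of the 45 Ccl12 UMIs and 99 of the 110 Cxcl2 UMIs of uninjured microglia-like cells. With sub-cluster 1 left out, 76 injured and 22 uninjured cells remained, of which 26 and 20 were of sub-cluster 3. The mix of sub-clusters thus still differed between the libraries. In the remaining cells Ccl2 had 83 UMIs against 0 and thus the opposite direction. Cxcl2 then stood at 328 against 143 CPM, also the opposite direction, and Cxcl16 at 191 against 65.0 CPM. Ccl4 (1436 against 559 CPM, ratio 2.57, 1.90 to 3.56), Cx3cr1 (842 against 1546 CPM) and Cxcl10 (313 UMIs against 0) kept their direction. Cxcr4 with 13 UMIs, Cxcl14 with 49 UMIs and Ccr1 with 59 UMIs against 0 no longer had an interval above 1. Ccr2 with 4 UMIs and Ccl7 with 1 UMI against 0 had too few UMIs left to be tested. The higher levels given above for Ccr1, Ccr2 and Ccl7 were thus not shown outside sub-cluster 1.

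Within the injured library, most members were higher in microglia-like than in astrocyte-like cells. Of 26 members tested, 20 were higher in microglia-like cells and 4 lower, against 19.2% of all genes higher and 33.9% lower. Ccl4 was 497-fold (213 to 1533) and Cx3cr1 152-fold higher (79.6 to 333), and Ccl6 was at least 143-fold higher. On 2 or 3 UMIs in astrocyte-like cells, the ratio was 533 (147 to 4412) for Ccl3, 421 (143 to 2042) for Cxcl2 and 137 (46.6 to 669) for Cxcl16. Cxcl10 had a ratio of 2.35 (1.94 to 2.86), but 1 cell held most of its UMIs in astrocyte-like cells, and without the richest cell of each class it stood at 127 against 16.8 CPM. The 4 lower members were Cxcl14 with a ratio of 0.159 (0.127 to 0.198), Ccl27a with 0.240, Cx3cl1 with 0.1201 (0.0136 to 0.495) and Ackr3, which had 0 UMIs in microglia-like cells and was at least 7.49-fold lower. Microglia-like cells thus held Cx3cr1, and its ligand Cx3cl1 was higher in injured endothelial-like (64.1 CPM), OPC-like (16.5 CPM) and astrocyte-like cells (8.81 CPM) than in microglia-like cells (2 UMIs). Injured fibroblast-like cells had 11 Cx3cl1 UMIs, and the astrocyte-like level was 57.8% of theirs.

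Fibroblast-like cells had the largest Ccl2 level of all classes after injury. Ccl2 stood at 905 CPM (837 to 977, 653 UMIs) in the 43 injured cells and 42.6 CPM (23.3 to 71.5, 14 UMIs) in the 95 uninjured cells, a ratio of 21.2 (12.6 to 39.1). A UMI was found in 48.8% and 10.5% of these cells, or 25.0% and 3.41% after thinning. Male cells, 12 and 50, gave 442 and 18.0 CPM. Cxcl2 had 188 UMIs (261 CPM) against 0 and was at least 28.5-fold higher, and Ccl7 stood at 431 and 107 CPM (ratio 4.05, 2.85 to 5.92). Cxcl1, a neutrophil attractant like Cxcl2, stood at 656 and 344 CPM (ratio 1.91, 1.55 to 2.36), just inside the limit. The ligands were often found together: of 43 injured cells 21 had Ccl2, 20 had Ccl7 and 17 had both, while 24 had Cxcl1 and 16 of these also Ccl2.

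Over the 17 members tested in fibroblast-like cells, 8 were higher and 3 lower, against 14.5% of all genes higher and 13% lower, and 6 and 3 with the interval also leaving 1. Besides those named, Ackr4, an atypical receptor that takes up Ccl19 and Ccl21, had 26 UMIs against 0 (at least 3.95-fold higher), of which male cells held 1. Ccr9 had 23 against 2 (ratio 5.24, 1.29 to 45.8), but its span overlaps other genes on the same strand. Ccl12 had 10 against 0, with 9 of them in 1 cell. The lower members were Cxcl16 at 122 and 271 CPM (ratio 0.450, 0.331 to 0.611; in male cells 0.678), Cxcl14 with 0 UMIs against 36 (21 of these in 1 cell, with astrocyte markers summing to 1102 and 2356 CPM in this class, whose part was not tested), and Ccl19 with 3 against 15 (ratio 0.0911, 0.0169 to 0.322). Cxcl12, which retains cells with Cxcr4, stood at 451 and 423 CPM (ratio 1.07). The eotaxin Ccl11 stood at 209 and 356 CPM (ratio 0.588, 0.459 to 0.755), with 60 of its 151 injured UMIs in 1 cell, and at 40.6 and 391 CPM in male cells. Ccl11 had 1 UMI each in injured astrocyte-like and mural-like cells and was otherwise found in fibroblast-like cells alone.

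The upper limit of 50000 UMIs bore on this class. It removed 40 injured barcodes and 0 uninjured ones, and 38 of the 40 were fibroblast-like when the limit was lifted. With these barcodes kept, injured fibroblast-like cells (81 cells) stood at 1442 CPM for Ccl2, 997 CPM for Cxcl1, 971 CPM for Ccl7 and 420.0 CPM for Cxcl2, and at 113 CPM for Cxcl12 against 423 CPM in uninjured cells. Whether these barcodes held more than 1 cell was not tested.

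Set against microglia-like cells of the same library, injured fibroblast-like cells had 10 members higher and 17 lower of 29 tested, against 26.1% of all genes higher and 18.1% lower. Cxcl12 had a ratio of 284 (96.3 to 1384, on 325 and 3 UMIs). Cxcl1 was 38.7-fold, Ccl2 6.79-fold and Ccl7 3.90-fold higher, and Ccl11 with 151 UMIs against 0 was at least 132-fold higher. Ccl3 had 0 UMIs in fibroblast-like and 888 in microglia-like cells. This division followed the order of the genes on chromosome 11, where 10 reported CC ligands lie between Ccl2 (chr11:82035571-82037453, plus strand) and Ccl4 (chr11:83662584-83664683, plus strand). The first 3 in this order, Ccl2, Ccl7 and Ccl11, had their highest injured level in fibroblast-like cells, and the following 7, Ccl12, Ccl8, Ccl5, Ccl9, Ccl6, Ccl3 and Ccl4, in microglia-like cells. For Ccl8 this rested on 34 UMIs, 30 of them in 1 cell. The change of class lay between Ccl11 and Ccl12, not at the wider gap between Ccl8 (ending at 82116799) and Ccl5 (starting at 83525778). In the uninjured library Ccl2 was higher in microglia-like (274 CPM) than in fibroblast-like cells (42.6 CPM).

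**Figure D4:**
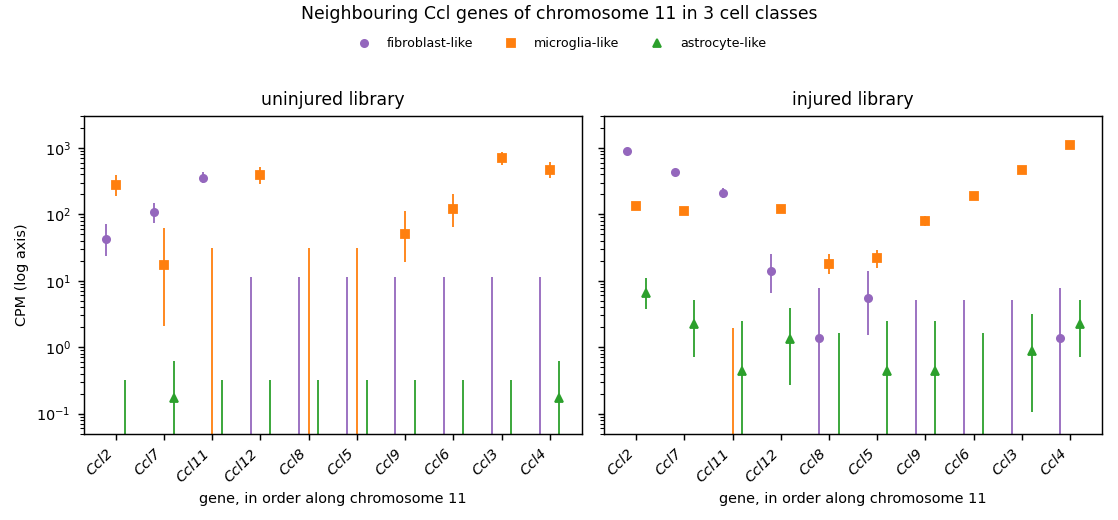
Levels of the 10 CC ligand genes of chromosome 11 in their order along the chromosome, for fibroblast-like, microglia-like and astrocyte-like cells of each library, in CPM on a log axis with exact Poisson 95% intervals and no point at 0 UMIs. In the injured library the first 3 genes are highest in fibroblast-like cells and the following 7 in microglia-like cells.

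Endothelial-like cells were the class of Cxcl12. It stood at 1186 CPM (1109 to 1266, 888 UMIs) in injured and 2698 CPM (2394 to 3029, 286 UMIs) in uninjured cells, a ratio of 0.439 (0.384 to 0.504), and a UMI was found in 77.1% and 96.2% of the cells. Between injured and uninjured endothelial-like cells the summed markers of other classes also differed, with mural markers at 34.7 (5 of 8 found) and 358 CPM (6 of 8), astrocyte markers at 101 (6 of 10) and 641 CPM (10 of 10), and macrophage and monocyte markers at 1267 and 509 CPM (2 of 10 each). Their part in the result was not tested. In male cells the levels were 1222 and 2566 CPM. Injured astrocyte-like cells had a Cxcl12 UMI in 1.44% of cells. Of 11 members tested, Cxcl12 was the 1 lower and 2 (Cxcl2 and Cxcl16) were higher, with intervals that spanned 1, against 14.4% of all genes higher and 10.9% lower. Cxcl1 stood at 169.6 and 84.9 CPM (ratio 2.00, 1.02 to 4.47) and Cx3cl1 at 64.1 and 37.7 CPM. In male cells Cxcl1 (253 and 90.6 CPM), Cxcl10 (91.0 and 30.2 CPM) and Ccl19 (23.7 and 75.5 CPM) were past the limit. These rested on 6, 2 and 5 uninjured UMIs. The atypical receptor Ackr1, which marks venules and carries chemokines across endothelium, stood at 46.7 and 75.5 CPM and was highest in this class in both libraries, although it overlaps Cadm3 on the same strand. Ackr3 stood at 57.4 and 56.6 CPM. Ccl19 and Ccl20, ligands of Ccr7 and Ccr6, also peaked here, at 24.0 CPM and 14.7 CPM in injured cells, and the 11 injured Ccl20 UMIs came from 1 cell.

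Ependymal-like, mural-like and OPC-like cells had summed levels of 219, 401 and 185 CPM in the injured library, in which receptors for Cxcl12 were prominent. In ependymal-like cells Cxcr4 stood at 20.1 CPM after injury and 63.1 CPM without it (ratio 0.318, 0.154 to 0.722), or 23.7 and 43.0 CPM in male cells. Ackr3 stood at 52.5 and 31.5 CPM there, and Ccl27a at 34.8 and 37.9 CPM. Of 8 members tested in this class, 2 (Cxcl12 and Ccl2) were higher and 3 lower, against 15.3% of all genes higher and 11.9% lower. With the interval also leaving 1, 0 were higher and 2 lower, Cxcr4 and Cxcl14. The level of Cxcl14 was 16.5 and 56.8 CPM (ratio 0.291). The remaining lower member was Cx3cr1, which in male cells stood in the opposite order, at 24.9 and 17.2 CPM. Without the richest cell of each library Cxcl14 had 23 and 3 UMIs, or 13.8 and 20.3 CPM, and was no longer past the limit. Injured mural-like cells had the highest Ackr3 level, 224 CPM (135 to 349.6), on 19 UMIs. Injured OPC-like cells were led by Cxcl14 at 53.6 CPM, Ccl25 at 29.9 CPM and Ackr3 at 28.9 CPM. Of the rarest reported members, Cxcl17 was found mostly in uninjured astrocyte-like cells (24 of its 29 UMIs), Cxcl5 most often in injured fibroblast-like cells (6 of 13), Ccr6 in microglia-like cells (8 of 10) and Ccr10 in astrocyte-like cells (6 of 10).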

How the data were processed

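The authors deposited raw UMI counts per gene and cell, not normalised, for 2 libraries of 10x 3′ gene expression. Their processing notes name Cell Ranger 8.0.1 and mm10, the file headers Cell Ranger 7.1.0, and cells were called before deposit. Barcodes with over 500 and under 50000 gene UMIs were kept (5038 cells). Counts were scaled to 10000 per cell, log transformed, and clustered on 2000 variable genes without the members (15 components, 15 neighbours, Leiden resolution 0.5) in scanpy 1.11.5 and igraph 0.11.9 under Python 3.11.15. A cluster was named where the mean marker score exceeded 0.2, at least 3 markers were in 10% of its cells, and its top 10 genes did not hold more markers of a different class. This rule was chosen once the matrices had been opened. Scrublet called 2 of 5038 cells, which is too few to have worked, so doublets were not removed, and the highest 5% of scores were left out as an alternative. Ratios and intervals were tested on simulated class sums with counting error only. That setting leaves out the bunching of UMIs in single cells, so it cannot show how the intervals hold there. With 1 library per condition no p-values were computed. Members and lists were chosen with earlier results of these data known, and members with 10 or more UMIs are described, except 1 that is counted but not reported here. Positions are from GENCODE on GRCm38. The pools of enhancer barcodes were not used here.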

Additional observations from a re-analysis of the deposited data

Results flagged for a closer look

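Some members differed in opposite directions between the libraries in different classes, each past 2-fold and with an interval that left 1, and these differences between classes were not tested. The log2 ratio of injured to uninjured level of Cxcr4 was 5.62 in microglia-like and -1.61 in ependymal-like cells. That of Cxcl14 was 5.65 in microglia-like, -6.79 in fibroblast-like and -1.72 in ependymal-like cells, with 0 UMIs in 1 library for the first and second of these and -0.52 without the richest cell of each library for the third. That of Ccl2 was 2.93 in astrocyte-like, 4.38 in fibroblast-like and -1.03 in microglia-like cells, and that of Ccl12 was 3.89 in fibroblast-like and -1.66 in microglia-like cells. Without the richest cell of each library the microglia-like value of Ccl2 was 0.25, and fibroblast-like Ccl12 had 1 UMI against 0. In male microglia-like cells Ccl2 was also higher in the injured library, at 147 against 77.3 CPM. These 2 oppositions thus rested on few cells. Without sub-cluster 1 the microglia-like values were 6.10 for Ccl2 and 0.60 for Ccl12, and the intervals of Cxcr4 (13 UMIs against 0) and Cxcl14 (49 against 0) no longer left 1.

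Cells outside the comparisons also carried members. The unnamed cluster of 760 uninjured cells had Cxcl14 at 590.0 CPM, Ccl25 at 22.7 CPM and Ccl27a at 17.5 CPM, where astrocyte-like cells of the same library had 482, 28.7 and 7.90 CPM. The 40 injured barcodes with 50000 or more gene UMIs had Ccl2 at 1503 CPM, Ccl7 at 1051 CPM and Cxcl1 at 1036 CPM.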

How the results depend on the processing

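No paired analysis was possible because there was 1 library of each condition. Over 14 alternatives for the astrocyte-like and microglia-like comparisons, 1426 of 1512 log2 ratios stayed in the same group (2-fold higher, 2-fold lower or between). Of those past 2-fold, 8 reversed. A change of direction inside the 2-fold limit was counted as the same group. In microglia-like cells the ratio of Cxcl2 was such a case, under 1 in all cells and 1.63 in male cells. Each alternative counted 108 ratios, including members under the 10 UMI filter, while 12, 22 and 26 members were tested in these comparisons. Members with 0 UMIs on both sides had little room to move. All 108 ratios stayed in the same group under each of 4 changes to filtering or clustering: no filter on cells, at least 1000 gene UMIs, Leiden resolution 1.0, and members kept in the clustering. Fibroblast-like, endothelial-like and ependymal-like comparisons were not among these ratios. With no filter on cells, fibroblast-like Cxcl12 stood at 113 against 423 CPM and Cxcl1 at 997 against 344 CPM, both past the limit. Values without sub-cluster 1, with the unnamed cluster added to the astrocyte-like cells, and those of fibroblast-like, endothelial-like and ependymal-like cells were chosen after seeing the data. Thinning to 1000 gene UMIs left 23 members to report, 1 higher and 2 lower in injured astrocyte-like cells, 5 higher in injured microglia-like cells, and 11 higher and 1 lower in microglia-like than in astrocyte-like cells; fewer UMIs pass the filter by construction. In injured astrocyte-like cells the count of higher members was 0 in male cells, 1 with a pseudocount of 10 CPM and 9 with a filter of 1 UMI, and 1 member was lower without the highest 5% of doublet scores, with a pseudocount of 0.1 CPM, and with the interval alone as the rule. In injured microglia-like cells 18 were higher with a filter of 1 UMI, and the count of lower members was 2 in male cells, 2 without the richest cell, 3 with median-ratio size factors and 1 without sub-cluster 1. With a pseudocount of 10 CPM, 2 members were lower in microglia-like than in astrocyte-like cells. The log2 ratios past 2-fold that reversed in microglia-like cells were those of Ccl24 (3.17 without the richest cell, 2.91 without sub-cluster 1), Ccl2 (0.92 in male cells, 0.25 without the richest cell, 6.10 without sub-cluster 1), Ccl12 (0.60 without sub-cluster 1), Ccr7 (4.94 in male cells) and, against astrocyte-like cells, Ccl7 (-0.82 without sub-cluster 1). The cause was not tested beyond what each setting leaves out. Depth limited the small uninjured classes, where 3 UMIs equalled 25.7 CPM in microglia-like, 28.3 CPM in endothelial-like and 439.8 CPM in mural-like cells.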
